A study of Mus musculus with 8 samples.

Results

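The genes described here are 42 DNA replication and S phase genes of the mouse, chosen by symbol in 6 role groups: licensing factors, firing factors, replicative polymerases, the clamp with its loader and strand maturation factors, nucleotide supply enzymes, and chromatin and repair partners of the fork. They were chosen with earlier results of these data known. All 42 were found among the 54532 genes of the deposited count table, each in 1 row, and all 42 were among the 14428 genes with enough counts to be tested. The RNA came from CD4 T cells of mouse spleen that had been cultured for 2 days toward pathogenic Th17 cells, in 4 libraries labelled Cyp1b1 knockout (KO-labelled) and 4 labelled wild type (WT-labelled), and both had the same culture. The series title places the comparison in a study of cytochrome P450 1B1 in the generation of these interleukin-17 producing cells. The knockout is given as Cyp1b1-/-, while the labels leave out mouse strain, age, sex and the deleted exons. They also leave out whether replicates are separate animals or cultures, so each p-value reflects library-to-library spread alone, and that spread may be technical.

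Activated CD4 T cells leave quiescence and divide rapidly, and DNA replication is part of that change. In G1, the origin recognition complex, Cdc6 and Cdt1 load rings of the 6 minichromosome maintenance proteins Mcm2 to Mcm7 onto origins, a step called licensing. At the start of S phase, Cdc45 and the GINS complex join the rings to form the active helicase. Polymerase alpha with primase then lays down primers, polymerases delta and epsilon extend them on the sliding clamp Pcna, and Fen1 and Lig1 seal the lagging strand. Most of these genes are transcribed together before and during S phase, under the E2F family of transcription factors and the retinoblastoma proteins that hold E2F in check.

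The E2F sites known from such promoters match the words TTTCCCGC, TTTCGCGC, TTTGCCGC and TTTGGCGC, and these were searched on both strands of RefSeq promoter windows (GRCm38.p6, 250 bases before to 50 bases after each gene start). A window was matched for 35 members, with 43 windows in all, and none was matched for Gins1, Gins2, Gins4, Mcm4, Pole, Prim2 and Rfc2. The sequences printed are those of members with a word in the 160 bases before the start. They are shown because they carry the E2F word and because the RNA of the first 4 genes rose while that of the last 3 did not pass the test. They read 5′ to 3′ on the strand of the gene, and capitals mark the words on either strand, with overlapping words run together. For Orc1, Rfc3 and Gins3, 30 bases around the words are given. The regions are chr1:128359706-128359865 (minus strand) for Mcm6, chr8:75109349-75109508 (plus) for Mcm5, chr11:98907991-98908150 (plus) for Cdc6, chrX:93632156-93632315 (minus) for Pola1, chr4:108579416-108579445 (plus) for Orc1, chr5:151651200-151651229 (minus) for Rfc3 and chr8:95633507-95633536 (plus) for Gins3. Starts differ between annotations: in GENCODE M21 the regions of Cdc6, Rfc3 and Gins3, and most of that of Orc1, lie inside the bounds of the gene.
Mcm6: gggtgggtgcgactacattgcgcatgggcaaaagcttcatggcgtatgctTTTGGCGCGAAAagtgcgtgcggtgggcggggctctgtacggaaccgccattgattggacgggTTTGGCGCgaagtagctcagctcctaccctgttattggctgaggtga
Mcm5: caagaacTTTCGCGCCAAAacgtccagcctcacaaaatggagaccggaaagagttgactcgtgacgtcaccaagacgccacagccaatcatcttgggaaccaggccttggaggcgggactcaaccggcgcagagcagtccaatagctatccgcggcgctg
Cdc6: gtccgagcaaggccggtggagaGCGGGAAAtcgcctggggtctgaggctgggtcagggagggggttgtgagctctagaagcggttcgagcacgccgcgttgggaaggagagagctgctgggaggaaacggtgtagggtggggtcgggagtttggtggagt
Pola1: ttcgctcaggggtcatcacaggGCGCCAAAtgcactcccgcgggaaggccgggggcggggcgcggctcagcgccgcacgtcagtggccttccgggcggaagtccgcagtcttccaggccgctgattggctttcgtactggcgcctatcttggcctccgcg
Orc1: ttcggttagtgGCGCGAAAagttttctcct
Rfc3: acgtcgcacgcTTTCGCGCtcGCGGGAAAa
Gins3: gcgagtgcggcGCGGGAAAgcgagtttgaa

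Before any of these values, the label check bears on every direction given. Cyp1b1 had 2179, 3169, 3007 and 2069 counts in the libraries labelled knockout, against 64, 34, 63 and 69 counts in those labelled wild type. It was therefore 41.8-fold higher where the label says it was deleted (log2 fold change 5.39, SE 0.24, edgeR adjusted p = 9.91e-07). Counts per gene do not show which exons were read. "Higher" and "rose" in what follows mean higher in the libraries labelled knockout, a label that the Cyp1b1 level goes against.

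Library totals ran from 13271968 to 15667313 counts under the knockout label and from 8918342 to 14335944 under the wild type label, with wild type 2 the shallowest. The pan-T and CD4 marker list of 9 genes, which includes Cd4, was summed in CPM (counts relative to a library size scaled by TMM). It came to between 3819 and 3879 CPM in libraries labelled knockout and between 3632 and 3797 CPM in those labelled wild type. Cd28, Lck and Zap70 were called higher and Cd2 lower by edgeR, and the other 5 genes were not called. Cd4 was among these 5, at means of 624 CPM in KO-labelled and 693 CPM in WT-labelled libraries (edgeR adjusted p = 0.0543). Some markers of other cell types moved with the label as well. Of 15 B cell markers, 13 were called lower and none higher by edgeR. At an unadjusted p under 0.05 in edgeR, 14 were lower and none higher, and none was at 0. Their sum ran from 521.7 to 737 CPM in KO-labelled and from 683 to 988 CPM in WT-labelled libraries. Ighm, which was not called, held the largest part of this sum, at means of 342.5 CPM in KO-labelled and 345.9 CPM in WT-labelled libraries. Macrophage and monocyte markers summed to 6.08 to 9.30 CPM in KO-labelled and 12.1 to 16.1 CPM in WT-labelled libraries, and Cd68 held most of it, at means of 6.51 CPM in KO-labelled and 12.3 CPM in WT-labelled libraries, with the other 6 genes failing the low-count filter. NK cell markers summed to 8.95 to 13.6 CPM in KO-labelled and 16.4 to 18.8 CPM in WT-labelled libraries. Of the 3 tested, Gzma was lower, at 7.36 CPM in KO-labelled and 14.1 CPM in WT-labelled libraries, and Klrk1 and Eomes were not called. Neutrophil markers summed to 20.7 to 38.3 CPM in KO-labelled and 7.70 to 13.9 CPM in WT-labelled libraries, nearly all of it Ly6g, at 29.9 CPM in KO-labelled and 11.04 CPM in WT-labelled libraries. S100a9 was at 0, and S100a8, Elane and Mpo were near 0. CD8 T cell markers summed to 15.3 to 17.7 CPM in KO-labelled and 15.4 to 18.3 CPM in WT-labelled libraries. Dendritic cell markers, with Clec9a and Cd209a at 0, summed to 65.3 to 81.9 CPM in KO-labelled and 75.2 to 85.7 CPM in WT-labelled libraries. Among them Batf3, at 60.3 CPM in KO-labelled and 49.2 CPM in WT-labelled libraries, held most of the sum and was higher. Flt3 (log2 -1.08, edgeR adjusted p = 1.07e-06) and Zbtb46 (log2 -0.86, edgeR adjusted p = 0.00497) were lower. Erythroid markers summed to 2.98 to 4.92 CPM in KO-labelled and 1.60 to 3.53 CPM in WT-labelled ones. In an exact two-sided permutation test over the 70 assignments of libraries, the T cell, macrophage, NK and neutrophil sums gave p = 0.0286, the smallest possible, and 0.0572 after Benjamini-Hochberg adjustment over the 8 lists. The B cell sum gave an exact permutation p of 0.0857 (0.114 adjusted), the erythroid sum 0.0571 (0.0914), the dendritic sum 0.429 (0.49) and the CD8 sum 0.743 (0.743). The part of these other cells in the results on replication genes was not tested.

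Replication genes were higher in the libraries labelled knockout across all 6 role groups, by modest amounts. Of the 42 members, 34 rose and none fell, and 8 did not pass the test (edgeR's quasi-likelihood test, Benjamini-Hochberg adjusted p under 0.05 over all tested genes). At an unadjusted p under 0.05 none was lower either, and DESeq2 and limma-voom gave the same counts. Among all tested genes, 15.7% were called higher and 14.6% lower. Fold changes of the 34 ran from 1.20 to 1.71, with adjusted p from 3.52e-07 to 0.0264. The median log2 fold change of the members was 0.42, in a range from -0.10 to 0.78, while that of all tested genes was -0.00099. The same 34 genes had every library labelled knockout above every library labelled wild type, which held for 15.1% of tested genes. The opposite order held for no member and for 14.1% of tested genes. No member reached 2-fold, and 7 reached 1.5-fold: Mcm5, Cdc6, Pola1, Fen1, Lig1, Tyms and Uhrf1. With scaling by library totals alone, which turned the split of all called genes from 2272 higher and 2108 lower to 1745 higher and 2689 lower, 32 members rose and none fell.

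**Figure D1:**
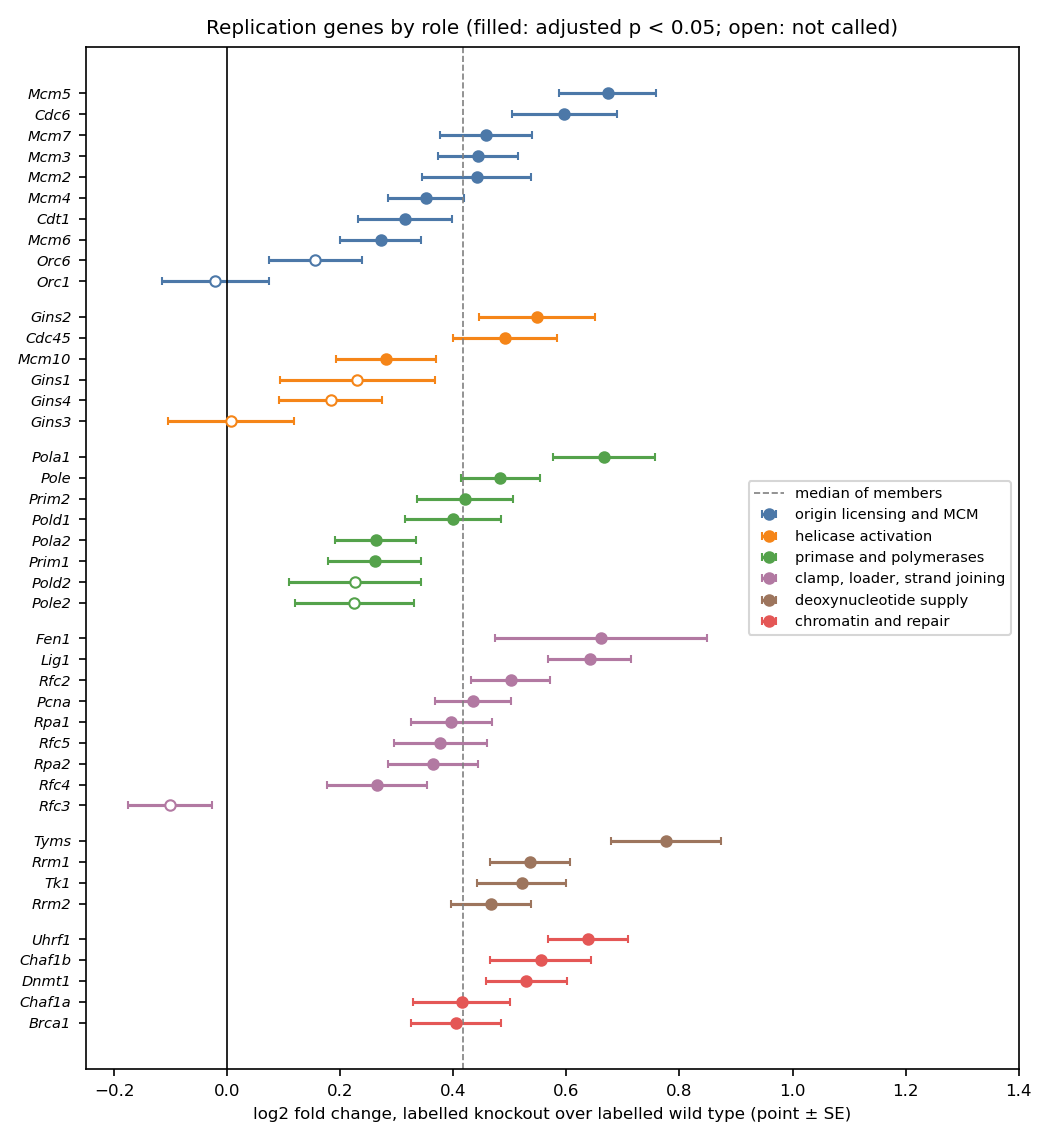
Log2 fold change of each member, libraries labelled knockout over libraries labelled wild type, by role group, with bars of 1 SE from edgeR and filled points for members that passed an adjusted p of 0.05. With TMM scaling all but Orc1 and Rfc3 lie above 0, and Tyms, at 0.78, has the highest value.

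Summed over the 42 genes, libraries labelled knockout had 5968, 5234, 5228 and 5699.6 CPM, against 4294, 3579, 4232 and 4162 CPM in libraries labelled wild type. The lowest library labelled knockout lay above the highest labelled wild type. The sum averaged 5532 ± 365 CPM in KO-labelled and 4067 ± 330 CPM in WT-labelled libraries (mean ± SD, n = 4 each, as in all such values here), 36.0% more in the KO-labelled. Members took between 0.513% and 0.580% of all counts under the knockout label, against 0.364% to 0.434% under the wild type label. In RNA from a whole culture, a change in the share of cells in S phase and a change in RNA per cell cannot be told apart.

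Of 10 licensing factors, 8 rose, and the 2 not called were the origin recognition subunits Orc1 and Orc6. All 6 helicase ring genes, Mcm2 to Mcm7, passed the test, with log2 fold changes from 0.27 for Mcm6 to 0.67 for Mcm5. Mcm5 (ENSMUSG00000005410, chromosome 8, 75109569 to 75128439, plus strand, GRCm38) had 295.8, 222, 220.1 and 277 CPM in libraries labelled knockout, against 164, 144, 168 and 160.1 CPM in those labelled wild type. The groups did not overlap, and knockout 1 and 4 were above knockout 2 and 3. It averaged 254 ± 38.4 CPM in KO-labelled and 159 ± 10.4 CPM in WT-labelled libraries, 1.59-fold (log2 0.67, SE 0.086, edgeR adjusted p = 4.11e-06).

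Mcm3 (chromosome 1, 20802968 to 20820312, minus strand), the licensing gene with the highest level per length, had 385, 333, 329.97 and 359.5 CPM under the knockout label, against 283, 227, 262 and 262 CPM under the wild type label. Here too the groups were apart, and wild type 2 was the lowest library. The fold was 1.36 (log2 0.44, SE 0.071, edgeR adjusted p = 4.91e-05). Mcm2, Mcm4, Mcm6 and Mcm7 rose by 1.36-, 1.28-, 1.21- and 1.37-fold. Cdc6, the ATPase that brings the rings to the origin, averaged 67.7 ± 5.04 CPM in KO-labelled and 44.5 ± 6.74 CPM in WT-labelled libraries, 1.51-fold (edgeR adjusted p = 3.3e-05), and its partner Cdt1 averaged 86.9 ± 10.5 CPM in KO-labelled and 69.8 ± 5.27 CPM in WT-labelled libraries, 1.24-fold (edgeR adjusted p = 0.00582). The Cdt1 call was lost without wild type 1 and knockout 1 and 4 (log2 0.19, edgeR adjusted p = 0.0718).

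Orc1, the large ATPase subunit of the origin recognition complex (chromosome 4, 108579423 to 108614833, plus strand), had 27.1, 26.9, 24.7 and 27.7 CPM in libraries labelled knockout and 27.2, 23.2, 30.4 and 26.7 CPM in libraries labelled wild type. The range under the knockout label lay inside that under the wild type label, and the log2 difference of -0.02 (SE 0.095, edgeR adjusted p = 0.896) had a 95% interval from -0.21 to 0.16. Its direction flips when no low-count filter is applied (0.02). Orc6, the smallest subunit, averaged 43.4 ± 2.80 CPM in KO-labelled and 39.0 ± 2.57 CPM in WT-labelled libraries (log2 0.16, SE 0.082, edgeR adjusted p = 0.159).

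Among the firing factors, 3 of 6 passed the threshold. All 6 had positive log2 fold changes with TMM scaling, and differences between them were not tested. Cdc45, which joins the ring together with GINS, had 65.8, 53.9, 53.0 and 65.9 CPM in libraries labelled knockout (chromosome 16, 18780447 to 18811987, minus strand), against 47.6, 37.7, 43.2 and 40.9 CPM in those labelled wild type. All 4 values under the knockout label were above all 4 under the wild type label, and the fold was 1.41 (log2 0.49, SE 0.091, edgeR adjusted p = 0.000257). Mcm10, a scaffold that acts as the helicase starts, averaged 56.6 ± 4.42 CPM in KO-labelled and 46.3 ± 5.63 CPM in WT-labelled libraries, 1.22-fold (edgeR adjusted p = 0.0184). Its adjusted p was 0.0684 without knockout 1 and 0.0935 without wild type 2.

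The 4 GINS subunits form 1 complex, and 1 of their 4 genes, Gins2, passed the test. Differences in fold change between the 4 were not tested. Gins2 (chromosome 8, 120578633 to 120589304, minus strand) had 30.1, 27.4, 24.7 and 30.0 CPM in libraries labelled knockout, against 19.95, 15.97, 20.5 and 19.9 CPM in libraries labelled wild type, and these did not overlap. It rose 1.46-fold (log2 0.55, SE 0.10, edgeR adjusted p = 0.000278). Gins3 (chromosome 8, 95633453 to 95645060, plus strand) had 15.6, 16.02, 18.7 and 15.04 CPM in KO-labelled libraries, against 16.2, 15.75, 18.05 and 14.9 CPM in WT-labelled ones, and the groups overlapped. Its log2 difference was 0.01 (SE 0.11, edgeR adjusted p = 0.973), with a 95% interval from -0.21 to 0.22, and its sign flips with scaling by library totals (-0.04).

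Gins4, the subunit gene with the highest level per length (chromosome 8, 23226616 to 23237659, minus strand), had 36.1, 33.8, 33.5 and 31.2 CPM under the knockout label, against 33.9, 29.0, 27.1 and 28.5 CPM under the wild type label. Wild type 1 lay among the libraries labelled knockout. The log2 difference was 0.18 (SE 0.091, edgeR adjusted p = 0.134), and without wild type 1 it was 0.25 (edgeR adjusted p = 0.0457). Gins1 averaged 13.8 ± 1.13 CPM in KO-labelled and 11.6 ± 2.40 CPM in WT-labelled libraries (log2 0.23, SE 0.14, edgeR adjusted p = 0.211). The count of Gins2 divided by that of Gins3 was 1.93, 1.71, 1.32 and 2.0 under the knockout label, against 1.23, 1.01, 1.14 and 1.34 under the wild type label, with knockout 3 just below wild type 4. This pair, like the other ratios given, was chosen after the values were seen and is a description without a test.

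**Figure D2:**
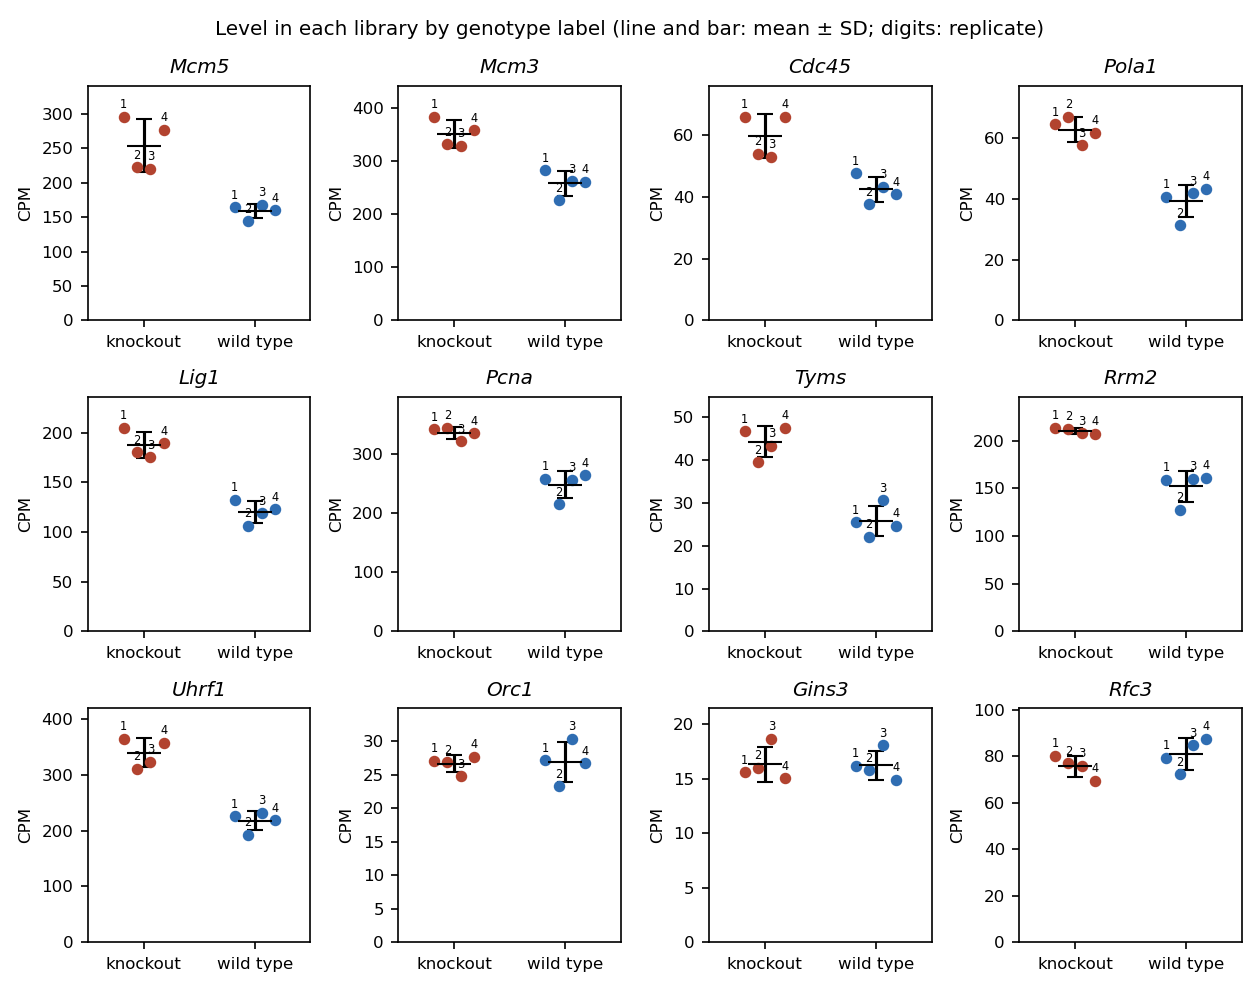
TMM-scaled CPM of selected members in each of the 8 libraries, libraries labelled knockout on the left and wild type on the right of each panel, with bars at the group means. Members that rose, such as Mcm5, Lig1 and Uhrf1, have separate groups, while the groups of Orc1, Gins3 and Rfc3 overlap.

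Of the polymerase genes, 6 of 8 rose, with Pola1 and Pole ahead in fold change. Pola1, the catalytic subunit of polymerase alpha (chromosome X, 93304767 to 93632155, minus strand), had 64.6, 67.2, 57.7 and 61.8 CPM in libraries labelled knockout, against 40.8, 31.4, 41.9 and 43.4 CPM in libraries labelled wild type. The gap between the groups was wider than either range. The fold was 1.59 (log2 0.67, SE 0.090, edgeR adjusted p = 6.28e-06). The fold changes of the other subunits of this complex were 1.20-fold for Pola2 (edgeR adjusted p = 0.00807), 1.20-fold for Prim1 (0.0196) and 1.34-fold for Prim2 (0.000535). The Prim1 call was lost with scaling by library totals (edgeR adjusted p = 0.0559) and without wild type 2 (0.098), and the Pola2 call without wild type 1 and knockout 1 and 4 (0.0799).

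Pold1, the catalytic subunit of polymerase delta (chromosome 7, 44532746 to 44548849, minus strand), had 187, 149, 149 and 171 CPM under the knockout label, against 144, 109, 121 and 123 CPM under the wild type label. The lowest of the first group lay above the highest of the second, and the fold was 1.32 (log2 0.40, SE 0.085, edgeR adjusted p = 0.000965). Pole, the catalytic subunit of polymerase epsilon, averaged 129.7 ± 9.87 CPM in KO-labelled and 92.8 ± 4.68 CPM in WT-labelled libraries, 1.4-fold (edgeR adjusted p = 1.46e-05). The accessory subunits among the members, Pold2 and Pole2, did not pass the test. Outside the members, Pold3 (log2 0.33, SE 0.066, edgeR adjusted p = 0.000608) and Pole3 (log2 0.38, SE 0.091, edgeR adjusted p = 0.00245) rose. Pole4 was not called (log2 0.16, edgeR adjusted p = 0.223), and Pold4 fell. Pold2 averaged 52.4 ± 8.15 CPM in KO-labelled and 44.6 ± 7.33 CPM in WT-labelled libraries (log2 0.23, SE 0.12, edgeR adjusted p = 0.154), and Pole2 averaged 20.5 ± 1.85 CPM in KO-labelled and 17.5 ± 1.47 CPM in WT-labelled libraries (log2 0.23, SE 0.11, edgeR adjusted p = 0.111). The 95% interval of Pold2, up to 0.46, includes the fitted log2 difference of its partner Pold1, while that of Pole2, from 0.02 to 0.43, ends below the 0.48 of its partner Pole. Neither difference between partners was tested. Pold2 passed when no low-count filter was applied (edgeR adjusted p = 0.0193), without knockout 2 (0.0201) and with the replicate number as a block (0.022).

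Clamp, loader and strand maturation genes rose in 8 of 9 cases. Pcna, the sliding clamp (ENSMUSG00000027342, chromosome 2, 132249162 to 132253314, minus strand), had 343, 345, 322 and 335 CPM in libraries labelled knockout, against 259, 215, 257 and 264 CPM in those labelled wild type. The libraries labelled knockout were close together, and wild type 2 was lowest of all. The fold was 1.35 (log2 0.43, SE 0.067, edgeR adjusted p = 3.08e-05).

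Lig1, the ligase that joins Okazaki fragments (chromosome 7, 13277283 to 13311433, plus strand), had 205, 180.4, 176 and 189 CPM under the knockout label, against 133, 106, 119 and 123 CPM under the wild type label. Its groups were far apart, and it had one of the smallest p-values of the members: 1.56-fold, log2 0.64, SE 0.073, edgeR adjusted p = 5.46e-07. Rpa1 and Rpa2, which coat single-stranded DNA, rose by 1.32- and 1.29-fold.

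Fen1, the flap nuclease, had the largest log2 fold change of this group, at low counts. Its values were 6.58, 4.78, 5.61 and 7.97 CPM in libraries labelled knockout, against 3.76, 4.19, 4.25 and 3.64 CPM in libraries labelled wild type. The groups did not overlap, but the spread under the knockout label was wide, and the fold of 1.58 (log2 0.66, SE 0.19, edgeR adjusted p = 0.00969) was no longer called without knockout 4 (log2 0.52, edgeR adjusted p = 0.0559) or without wild type 1 and knockout 1 and 4 (log2 0.38, edgeR adjusted p = 0.279). In GENCODE M21, 78.8% of the exon bases of Fen1 (chromosome 19, 10199132 to 10204169, minus strand) are shared with the antisense gene Gm10143 and 5.37% with Tmem258, both on the other strand. Whether counting used strand is not known, so the Fen1 level is uncertain. The same holds for Gins2 and Chaf1a, with 67.3% and 52.5% of exon bases shared with Gse1 and Ubxn6 on the other strand, and to a smaller extent for Rfc2, Rfc4, Mcm7, Orc1 and Rfc5, at 10.7% to 15.1%.

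The clamp loader is built of several Rfc subunits, and 3 of the 4 subunit genes among the members rose. Rfc2 rose 1.42-fold (106.7 ± 6.06 CPM in KO-labelled and 75.2 ± 4.99 CPM in WT-labelled libraries, edgeR adjusted p = 9.39e-06), Rfc5 1.30-fold (edgeR adjusted p = 0.00121) and Rfc4 1.20-fold (edgeR adjusted p = 0.0264). The Rfc4 call was lost with library totals and without any 1 of knockout 1, knockout 3, wild type 2 and wild type 4, at adjusted p from 0.0533 to 0.0864. Rfc3 (chromosome 5, 151642756 to 151651242, minus strand) had 80.3, 77.0, 76.0 and 69.5 CPM in libraries labelled knockout, against 79.4, 72.3, 84.7 and 87.7 CPM in libraries labelled wild type, and the groups overlapped. It was the member with the lowest log2 difference, -0.10 (SE 0.074, edgeR adjusted p = 0.323), and its 95% interval from -0.25 to 0.04 lies below the fitted log2 difference of each of its 3 partners, although the difference between the genes was not tested. The count of Rfc2 was 1.41, 1.32, 1.33 and 1.58 times that of Rfc3 under the knockout label, against 1.02, 0.953, 0.904 and 0.852 times under the wild type label.

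All 4 nucleotide supply genes rose. Tyms, which makes thymidylate and is the target of fluorouracil, had 46.7, 39.5, 43.4 and 47.6 CPM in libraries labelled knockout (chromosome 5, 30058202 to 30073617, minus strand), against 25.6, 22.1, 30.6 and 24.7 CPM in those labelled wild type. The groups were well separated, and Tyms had the largest fold of the members, 1.71 (log2 0.78, SE 0.098, edgeR adjusted p = 2.31e-06). Rrm2, the regulated small subunit of ribonucleotide reductase (chromosome 12, 24708241 to 24714146, plus strand), had 214, 212, 208 and 207 CPM under the knockout label, against 159, 128, 160.1 and 161 CPM under the wild type label. Libraries labelled knockout hardly differed among themselves, wild type 2 was low, and the fold was 1.38 (log2 0.47, SE 0.071, edgeR adjusted p = 2.79e-05). Rrm1, the large subunit, rose 1.45-fold (edgeR adjusted p = 4.36e-06), and Tk1, the thymidine salvage kinase, 1.44-fold (edgeR adjusted p = 2.4e-05).

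The 5 chromatin and repair partners of the fork also rose. Uhrf1, which reads hemimethylated DNA behind the fork and recruits Dnmt1 (ENSMUSG00000001228, chromosome 17, 56303321 to 56323486, plus strand), had 364, 311, 323 and 357 CPM in libraries labelled knockout, against 226, 193, 232 and 219 CPM in libraries labelled wild type. No library of one label came near those of the other, and it had the smallest adjusted p of the members (1.56-fold, log2 0.64, SE 0.070, edgeR adjusted p = 3.52e-07). Dnmt1, the maintenance DNA methyltransferase, averaged 510.4 ± 50.2 CPM in KO-labelled and 353 ± 26.1 CPM in WT-labelled libraries, 1.44-fold (edgeR adjusted p = 6.31e-06). Chaf1a and Chaf1b, subunits of the factor that places histones on new DNA, rose 1.33- and 1.47-fold, and the repair gene Brca1 rose 1.32-fold. Uhrf1 and Chaf1a lie on the chromosome of Cyp1b1, 23.4 and 23.6 Mb from it, and the other 40 members lie on other chromosomes.

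The 15 members with a mean of at least 100 CPM all rose, with a median log2 fold change of 0.46. Of the 27 members under 100 CPM, 19 rose and 8 were not called, with a median of 0.36. The median SE was 0.071 in the first class and 0.089 in the second, so changes of the lower genes were measured less precisely. In simulated counts, 30.8% of 500 genes changed 1.25-fold and 73.1% of 499 genes changed 1.5-fold were called. Those genes were not matched to the members in level. The 10 simulations gave 1524 calls in all, against 4380 genes called in the data, so the simulated threshold on p was stricter. These shares therefore do not give the chance of calling a member.

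Per kilobase of exon, levels of the members ran over a wide range in both labels. Pcna was highest, at 140.1 ± 4.34 CPM per kb in libraries labelled knockout and 103.6 ± 9.35 in libraries labelled wild type, and Fen1 was lowest, at 2.57 ± 0.57 CPM per kb in KO-labelled and 1.64 ± 0.12 in WT-labelled libraries. The level of Fen1 per length is uncertain, because 84.2% of its exon bases are shared with genes on the other strand. The same limit holds for Gins2 and Chaf1a. Mcm3 followed Pcna, at 93.7 CPM per kb in KO-labelled and 68.9 in WT-labelled libraries. Ordered by the level in libraries labelled wild type, 4 of the 41 neighbouring pairs differed by more than the sum of their SDs: Pcna over Mcm3, Mcm5 over Rpa1, Tk1 over Rfc5 and Tyms over Fen1. Uhrf1 had 79.5 ± 6.10 CPM per kb in KO-labelled and 51.0 ± 4.05 in WT-labelled libraries, within the summed SDs of Mcm6 in the KO-labelled and of Mcm4 in the WT-labelled.

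Within a label, members moved together from library to library, and whether other tested genes did so to the same degree was not examined. Wild type 2, the library with the fewest counts, was below the mean of its label in 39 of 42 members, with a median deviation of -0.17 on the log2 scale. Under the knockout label, knockout 1 was above the mean in 38 members and knockout 4 in 30, while knockout 2 was above it in 10 and knockout 3 in 7. Wild type 1, 3 and 4 were above theirs in 34, 38 and 27 members. With wild type 1 and knockout 1 and 4 left out, the 3 libraries on one side of the main direction of spread within labels over all tested genes, 31 members rose and the members' median log2 fold change was 0.34. Without wild type 2, 31 rose. The part of depth in the low values of wild type 2 was not tested.

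**Figure D3:**
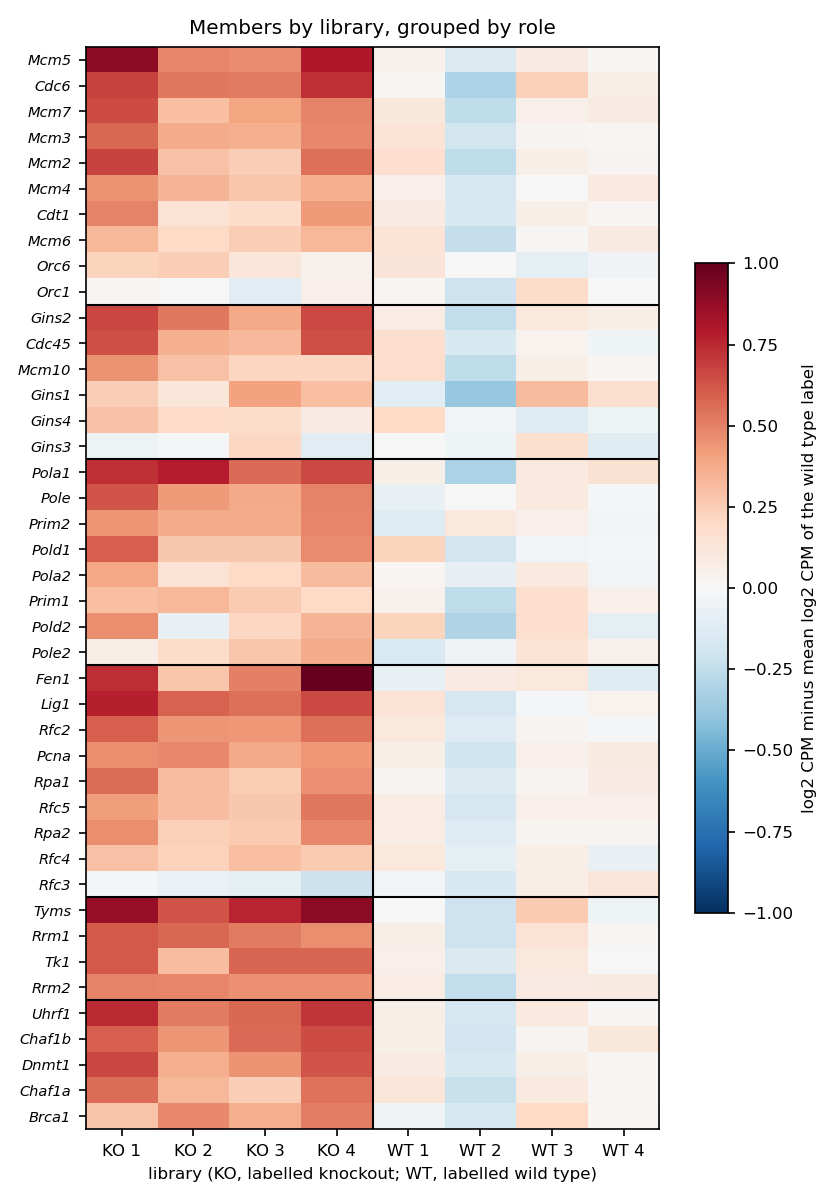
Log2 CPM of each member in each library minus the mean log2 CPM of that member in the libraries labelled wild type. Libraries labelled knockout are in the left columns and wild type in the right, grouped by role. Wild type 2 holds the lowest value of the 8 libraries for 34 members, a count not made for other genes. The rows of Orc1, Gins3 and Rfc3 show no split between the labels.

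Other genes of replication were counted from lists chosen by function, with earlier results of these data known. Of 99 such genes, 52 rose, 3 fell and 44 were not called, with a median log2 fold change of 0.23. Origin and fork factors rose in 10 of 19 cases: Timeless, a fork protection factor, by 0.74 on the log2 scale (SE 0.092), Mtbp, a partner in origin firing, by 0.70 (SE 0.089), and Clspn, a checkpoint adaptor at the fork, by 0.63 (SE 0.067). In 15 other polymerase, clamp and strand genes, 8 rose and 1 fell. Chtf18, of the alternative clamp loader, rose by 0.78 (SE 0.090) and Pclaf, a Pcna-binding protein, by 0.49 (SE 0.092). Pold4, the smallest subunit of polymerase delta, averaged 77.6 ± 3.96 CPM in KO-labelled and 101.1 ± 6.68 CPM in WT-labelled libraries, a change of -0.38 (SE 0.070, edgeR adjusted p = 0.000213), opposite to Pold1.

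Of 12 nucleotide genes outside the 4 described, 4 were called higher, and the median was 0.10. Dtymk, which phosphorylates thymidylate, rose by 0.43 (SE 0.068), Dck, a salvage kinase, by 0.39 (SE 0.087) and Dut, which removes dUTP, by 0.34 (SE 0.071). Among 15 chromatin genes tied to replication, 10 rose: Ezh2, the methyltransferase of Polycomb, by 0.66 (SE 0.062), Suv39h1, a histone H3 methyltransferase, by 0.34 (SE 0.079) and Ssrp1, of the FACT histone chaperone, by 0.31 (SE 0.062). Fork repair and checkpoint genes rose in 10 of 16 cases, with Brca2 at 0.62 (SE 0.090) and Bard1 at 0.49 (SE 0.079). The edgeR adjusted p of the genes named here as risen was at most 0.00216.

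Of 22 genes of the E2F family, its retinoblastoma partners and the S phase cyclins, 10 rose and 2 fell. E2f8 averaged 41.5 ± 1.46 CPM in KO-labelled and 22.1 ± 2.00 CPM in WT-labelled libraries (log2 0.91, SE 0.089, edgeR adjusted p = 6.05e-08), and E2f7 averaged 23.8 ± 2.44 CPM in KO-labelled and 12.3 ± 0.50 CPM in WT-labelled libraries (log2 0.95, SE 0.11, edgeR adjusted p = 5.1e-07). Both are repressors that act on S phase genes, and both had a larger log2 fold change than any of the 42 members. Cyclin E1, from Ccne1, drives entry into S phase and rose by 0.42 (SE 0.082). Rbl2, the retinoblastoma relative p130 of quiescent cells, averaged 126 ± 8.70 CPM in KO-labelled and 151 ± 8.57 CPM in WT-labelled libraries and fell by 0.26 on the log2 scale (SE 0.068, edgeR adjusted p = 0.00602). The fall of E2f5, one of its partners, at 7.15 ± 1.58 CPM in KO-labelled and 9.72 ± 0.93 CPM in WT-labelled libraries (log2 -0.45, SE 0.16, edgeR adjusted p = 0.0363), was lost in 9 of the alternatives tried.

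Genes of the steps before and after S phase moved the same way in part. Of 10 G1 entry genes, 7 rose and none fell (2 were lower at an unadjusted p under 0.05 in edgeR, and none was called lower by DESeq2 or limma-voom), including Cdkn2c, an inhibitor of Cdk4 and Cdk6, by 0.75 (SE 0.11), Cdk4 by 0.39 (SE 0.069) and Cdk6 by 0.36 (SE 0.062). With scaling by library totals the count was 4 of 10. In 29 mitosis genes, 15 rose and 1 fell, with a median of 0.25: Birc5 rose by 0.60 (SE 0.079) and Top2a, which untangles chromosomes, by 0.44 (SE 0.058). Pttg1, the separase inhibitor securin, averaged 15.9 ± 0.70 CPM in KO-labelled and 25.4 ± 1.31 CPM in WT-labelled libraries, a change of -0.67 (SE 0.096, edgeR adjusted p = 1.27e-05). No test compared these lists with the 42 replication genes, and none is claimed to differ from them.

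**Figure D4:**
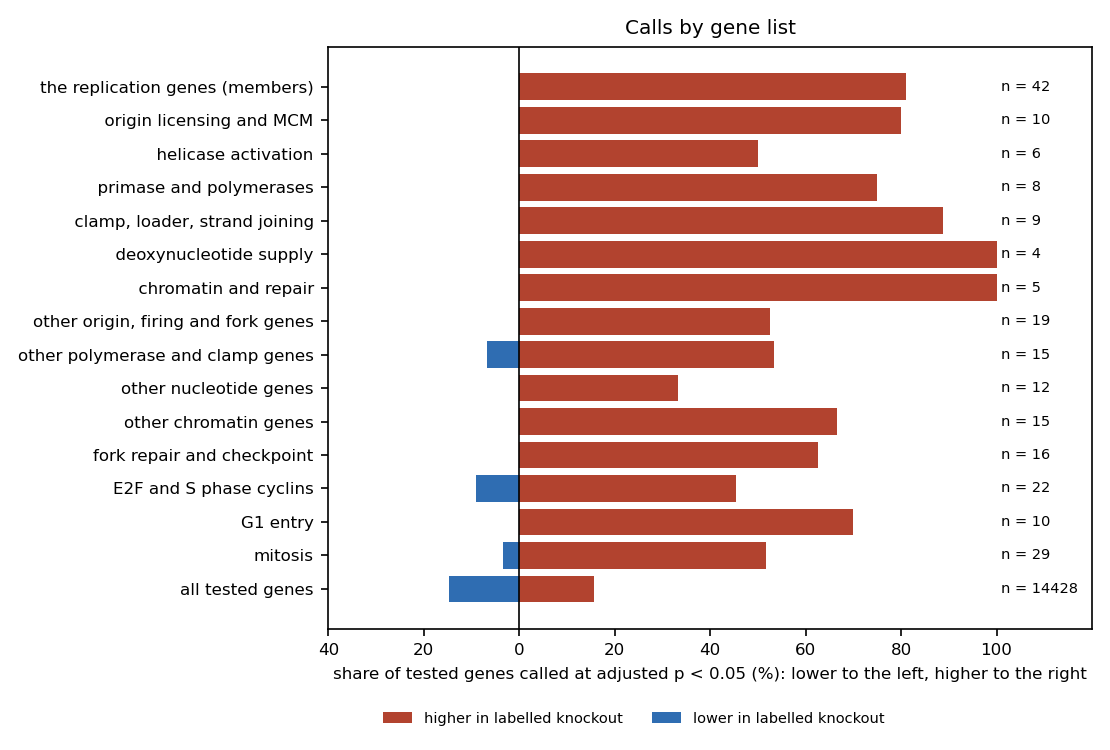
Share of tested genes, in percent, called higher and called lower by edgeR in the 42 members, their role groups, the other lists and all tested genes. Members were called higher in 34 of 42 cases and lower in 0, while 15.7% of all tested genes were called higher and 14.6% lower.

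The promoters printed above were picked because they hold an E2F word, and most matched members had none. Promoter sequence was not used to choose the 42 genes, but the E2F words are those known from promoters of such genes. A gene was counted if any of its windows held the word. An E2F word was in 15 of 35 members (42.9%), in 4.74% of tested genes with a window and in 2.6% of all genes with a window. It was in 1 of 25 mitosis genes with a window (4.0%). TTTGAA is the core of the element called CHR that marks promoters of mitosis genes. It was in 6 of 35 members (17.1%), 17 of 25 mitosis genes (68.0%), 14.5% of tested genes and 20.2% of all genes with a window. CCAAT, a general promoter word, was in 23 of 35 members (65.7%), 18 of 25 mitosis genes (72.0%), 42.8% of tested genes and 41.1% of all genes with a window. These are matches of letters on both strands, not sites shown to be bound, and overlaps between words were kept. Because the E2F words and CHR are known from promoters of these classes of genes, the shares describe the lists and test nothing.

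The word was found in members that rose and in members that were not called. It was in 11 of the 29 risen members with a window and in 4 of the 6 uncalled ones, namely Orc1, Gins3, Pole2 and Rfc3. In Mcm6, which has 3 words at 110, 106 and 47 bases before the start, RNA rose 1.21-fold, among the smallest rises. In Mcm5, with overlapping words that begin 153 and 149 bases before the start, it rose 1.59-fold. Cdc6 and Pola1, with 1 word each 138 bases before the start, rose 1.51- and 1.59-fold.

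**Figure D5:**
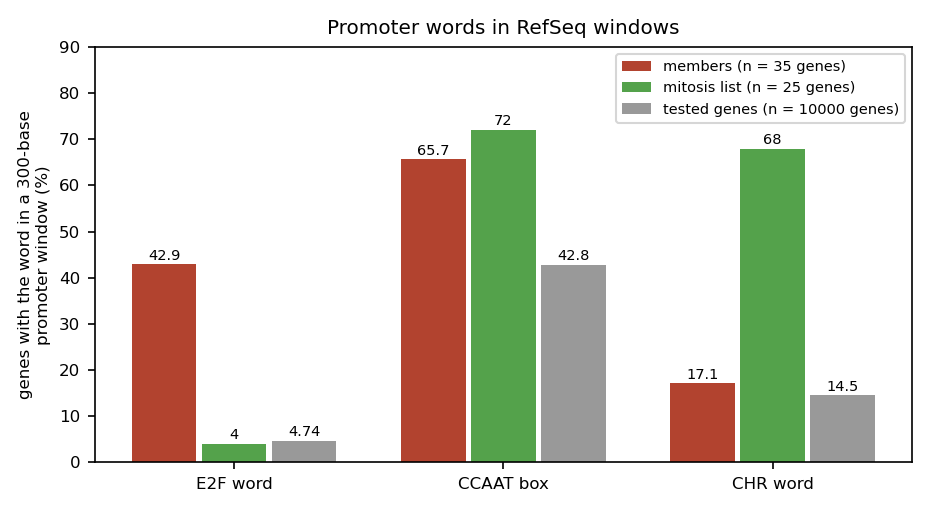
Share of genes, in percent, with an E2F word, CCAAT or the CHR word TTTGAA on either strand of any of their RefSeq promoter windows. Shares are given for the 35 matched members, the 25 matched mitosis genes and all tested genes with a window. The E2F word stands at 42.9% in the members and 4.0% in mitosis genes, and the CHR word at 17.1% and 68.0%.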

How the data were processed

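RNA from 8 libraries of cultured CD4 T cells, 4 labelled knockout and 4 labelled wild type, was measured by poly(A) RNA sequencing. The authors deposited whole-number counts per gene, not normalized. Fastp was used, per the submitters' processing notes. The aligner, counter and build, and whether strand was used, were not given in the sources used here. Of 54532 gene IDs, 54409 were found in GENCODE M21 (GRCm38), whose positions are given.

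Counts were tested in R 4.3.3 with edgeR 4.0.16 (quasi-likelihood F-test, robust, TMM scaling, genotype alone, two-sided, Benjamini-Hochberg). Genes were kept by filterByExpr (minimum count 10, minimum total 15), which left 14428. Adjusted p under 0.05 was called. CPM are TMM-scaled. SEs were obtained by dividing each log2 fold change by the root of its F statistic, and the common biological coefficient of variation was 0.0895. Reads carry no molecular identifiers, so precision was judged from replicates. Libraries sharing a label were distinct beyond sampling noise (chi-square per gene 3.69 to 12.3).

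The members, the lists and the alternatives were chosen with earlier results of these data known. Values per library are given, in each role group, for the called member with the smallest p, the member with the highest level per length and the largest log2 fold change. Members not called are all named, with other members of interest, and each other list gives up to 3 called genes with the smallest p, of which 1 is not reported here. Rbl2, E2f5, Pold3, Pole3 and Pole4 were named after their values were seen.

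Alternatives were DESeq2 size factors, library totals, no filter, CPM of at least 1 in 4 libraries, a replicate block, each library left out, DESeq2 1.42.0, limma-voom (limma 3.58.1) and protein-coding genes alone. Leaving out wild type 1 and knockout 1 and 4 together was added after the data were seen. On counts simulated for 14428 genes, 4.2% of 1524 calls were false.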

Additional observations from a re-analysis of the deposited data

Results flagged for a closer look

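In 100 groups of 4 libraries examined, 6 held a library far from the other 3 by Dixon's criterion, and chance gives about 1 in 20. In 5 of the 6 it was wild type 2, which also had the fewest counts. The part of depth in these values was not tested.

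Pcna had 215 CPM in wild type 2, against 257 to 264 CPM in the other libraries labelled wild type. Rrm2 had 128 CPM there, against 159 to 161 CPM in the others. Rfc5 had 38.7 CPM there, against 44.9 to 45.6 CPM. Gins2 had 15.97 CPM there, against 19.9 to 20.5 CPM. The summed level of the 9 clamp, loader and strand maturation genes was 735 CPM there, against 843 to 859.9 CPM. Under the knockout label, Tk1 had 75.4 CPM in knockout 2, against 91.2 to 93.1 CPM in the other 3 libraries.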

How the results depend on the processing

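Of the 34 rises, 28 kept their call under all 17 alternatives, and none of the 42 members was called lower under any of them. Members called higher numbered from 31 to 35 with each library left out, and the exceptions are given beside the genes in the report. The sign of Orc1 flips with no filter (0.018) and ran from -0.085 to 0.038 with each library left out. The sign of Gins3 flips with library totals (-0.044) and with protein-coding genes alone (-0.00895), and ran from -0.059 to 0.058 with each library left out.

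Some small counts in other lists moved by more than 1.5 times. No other nucleotide gene was called lower by edgeR in the main comparison, where 3 had an unadjusted p under 0.05 with a lower level, and DESeq2 called none. The count was 1 with the CPM filter, 3 with library totals, 2 with limma-voom, 2 with protein-coding genes alone, 1 with wild type 1 and knockout 1 and 4 left out, and 0 to 2 with each library left out. Fork repair genes called lower numbered 1 with library totals, 1 with those 3 libraries left out and 0 to 1 with each library left out, against 0. E2F family genes called lower numbered 1 with DESeq2, 1 with no filter, 1 with the 3 libraries left out and 1 to 3 with each library left out, against 2. G1 entry genes called higher numbered 4 with library totals and 4 to 7 with each library left out, against 7, and those called lower 1 and 0 to 1, against 0. Replication chromatin genes called higher numbered 6 to 10 with each library left out, against 10, with the 6 reached without wild type 2.

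Same-numbered libraries deviated together only weakly over all genes (correlations from 0.0507 to 0.0906), and 2 knockout and 3 wild type libraries correlated best with their own number, so the numbers were not taken as pairs. With the replicate block, 35 members rose, with Pold2 added, 2 other nucleotide genes were lower, and 2535 of all tested genes were higher and 2401 lower. The lowest level among the members was that of Fen1, at 4 to 8 CPM in every library. The part of depth or of shared exon bases in this was not tested.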

Other observations

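Replication-dependent histone genes, which are transcribed in S phase, were nearly outside the reach of these libraries. Of 70 genes of the Hist1 to Hist4 clusters in the table, 5 had enough counts to be tested, and their RNAs mostly lack the poly(A) tail by which the RNA was captured. Hist1h4i was the only 1 of the 5 that passed, with a log2 fold change of 0.73 (edgeR adjusted p = 0.0124). It is named here after its value was seen.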
